A study of Mus musculus with 58 samples.

Results

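Brain-derived neurotrophic factor (Bdnf), neurotrophin receptors, a sorting receptor, a neuropeptide precursor, and a transcription factor with its coactivator were followed through prefrontal cortex of mice. As pups, the mice had been exposed to an antidepressant, a mood stabiliser or vehicle. The set held 8 genes of the 18088 in the table, and its members were chosen by symbol: Bdnf itself, the receptors Ntrk2 (TrkB), Ntrk3 (TrkC) and Ngfr (p75NTR), the sorting receptor Sort1 (sortilin), the secreted neuropeptide precursor Vgf, the transcription factor Creb1 and its coactivator Crtc1. All 8 were measured and all 8 passed the minimum mean of 10, so none was lost to a filter on low values. The animals were C57BL/6J mice that carried a Tbl1xr1 knock-in allele in heterozygous form (HT) or were wild type (WT), killed on postnatal day 25 after 3 weeks, from day 3 to day 24, in which lithium, fluoxetine or vehicle reached them through their mothers' milk. HT lithium, HT fluoxetine, HT vehicle, WT fluoxetine and WT vehicle had 5 female and 5 male libraries each, and WT lithium had 4 of each sex, which gave 58 libraries in 12 groups. The labels name neither the change that the knock-in allele carries nor the dams, so that drug and litter cannot be told apart, and they leave unsaid whether every library came from its own animal.

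BDNF is made as a precursor, packed into dense-core vesicles of excitatory neurons and cut to its mature form by proprotein convertases. The mature form binds TrkB and acts through the Ras-MAPK, PI3K and phospholipase C routes, while the uncut precursor binds p75NTR together with sortilin. Calcium entry and cAMP signalling lead to phosphorylation of CREB, which with CRTC coactivators binds cAMP response elements and drives genes such as Bdnf and Vgf. The pathway is known in cortex for its place in synaptic plasticity, and rises of BDNF and TrkB signalling have been proposed as a common step in the action of antidepressants and of lithium. Each value here is the read total of a whole gene, so it does not separate the alternative promoters of Bdnf or the full-length and truncated forms of TrkB and TrkC.

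Bdnf is a gene with many alternative first exons, and its promoter IV is known as the most responsive to neuronal activity. GENCODE M21 (GRCm38) lists 9 distinct transcript starts for it, and RefSeq (GRCm38.p6) gave 7 promoter windows of 250 bases, not all of them at those starts. These windows, read on both strands, were searched for the cAMP response element TGACGTCA and for its shorter form TGACG, which lies within the longer one. Among the 32851 windows of all genes, 508 (1.55%) held the long form and 5836 (17.8%) the short form. Of 11 windows belonging to 5 of the 8 genes (Bdnf, Ntrk2, Ngfr, Creb1 and Crtc1), 0 held the long form and 1 held the short form. That window is promoter IV of Bdnf, chr2:109692186-109692435 on the plus strand, with the motif on the minus strand ending 31 bases before the start. It is printed beside promoter I of Bdnf, chr2:109674450-109674699, which held neither form, and beside the stretch before Pcsk1, the convertase gene whose transcript moved with Bdnf below, chr13:75089607-75089825 on the plus strand. Capitals mark the matches, and CGTCA is TGACG read on the other strand.
Bdnf promoter IV: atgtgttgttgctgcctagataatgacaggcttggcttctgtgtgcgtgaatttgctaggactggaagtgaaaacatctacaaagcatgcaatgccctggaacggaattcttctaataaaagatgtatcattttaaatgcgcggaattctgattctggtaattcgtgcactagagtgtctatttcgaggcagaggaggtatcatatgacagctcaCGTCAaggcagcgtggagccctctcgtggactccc
Bdnf promoter I: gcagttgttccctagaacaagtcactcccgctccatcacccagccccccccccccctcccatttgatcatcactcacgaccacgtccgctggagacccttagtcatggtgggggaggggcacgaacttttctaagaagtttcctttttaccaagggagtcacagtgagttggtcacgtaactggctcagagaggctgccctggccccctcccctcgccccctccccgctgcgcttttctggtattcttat
Pcsk1: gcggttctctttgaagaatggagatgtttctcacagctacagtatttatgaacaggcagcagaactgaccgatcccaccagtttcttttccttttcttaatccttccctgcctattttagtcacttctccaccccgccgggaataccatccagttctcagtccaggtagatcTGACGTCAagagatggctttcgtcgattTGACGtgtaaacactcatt
A match describes the letters only, and no binding was measured here.

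The 58 libraries held 22900000 to 35010000 reads each (median 26730000), with size factors of 0.7872 to 1.229. Tbl1xr1 averaged 2490 ± 79.8 in HT lithium, 2500 ± 143 in HT fluoxetine and 2590 ± 91 in HT vehicle libraries, against 2090 ± 110, 2010 ± 163 and 2110 ± 60 in WT lithium, WT fluoxetine and WT vehicle libraries (normalised reads, SD). Markers of excitatory neurons were high in every library, with a summed level of 112000 to 154000. Markers of neighbouring tissue varied: the summed level of 8 olfactory bulb markers ran from 1200 to 29200 around a median of 4230, and that of the choroid plexus list reached 140 times its median in WT vehicle female 4. The olfactory bulb list was lower in HT than in WT under each of the 3 treatments, with 0 of 8 markers above 0 and medians of -0.96 (lithium), -0.98 (fluoxetine) and -0.96 (vehicle) on the log2 scale, though 0 of the 8 markers were called in any of them. In such bulk samples, fewer cells of a type and less RNA per cell cannot be told apart.

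Divided by exon length, Sort1 had the highest transcript level of the 8, at 2050 ± 168 normalised reads per kb (SD over 58 libraries), followed by Vgf at 1370 ± 194 and Ntrk2 at 1030 ± 66.6. Crtc1 stood at 420 ± 23, Ntrk3 at 203 ± 21, Bdnf at 167 ± 34.4 and Creb1 at 137 ± 13.9 per kb. Ngfr was far below the rest at 9.82 ± 4.24 per kb, with 11 to 71 reads in a library. The receptor for BDNF was thus present at a transcript level well above that of its ligand, and p75NTR was close to the lower end of what was tested. Among their relatives, Bdnf was above the neurotrophin Ntf3 (12.3 ± 3.94 per kb), while Ntf5 had a mean of 4.84 normalised reads and was not tested. Crtc1 was above Crtc2 (160 ± 14.9 per kb) and Crtc3 (47 ± 6.33), and Creb1 was above its relatives Atf1 (89.4 ± 9.54) and Crem (69.9 ± 8.27). Sort1 was above Sorl1 (891 ± 102 per kb) and the SorCS receptors Sorcs1, Sorcs2 and Sorcs3 (180 ± 22.6, 173 ± 21.4 and 181 ± 20).

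**Figure D1:**
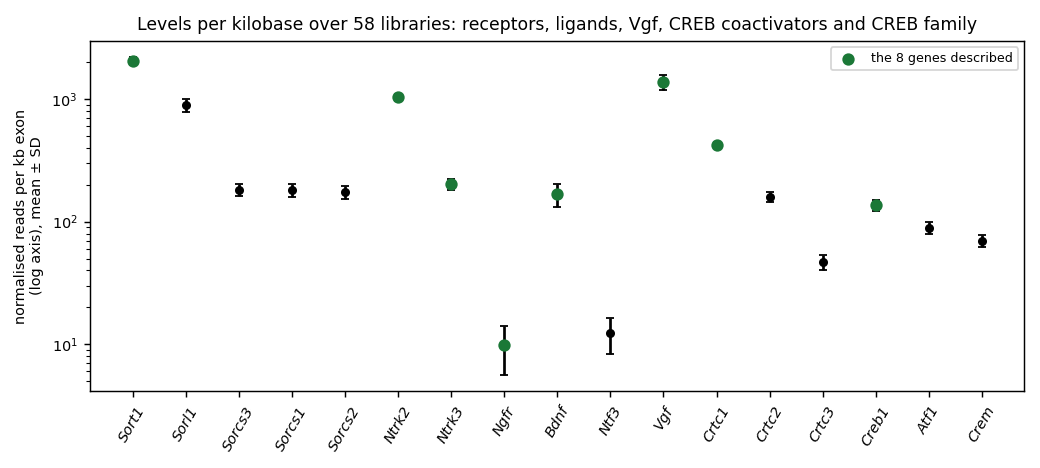
Mean transcript level per kb of exon over 58 libraries (log axis), with SD bars, for sorting receptors, neurotrophin receptors, neurotrophins, Vgf and the CRTC and CREB families; the 8 genes described are green. Sort1, Vgf and Ntrk2 stand above 1000 per kb and Ngfr stands at 9.82 per kb.

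Apart from Ngfr, Bdnf and Vgf varied most between libraries. The coefficient of variation over 58 libraries was 20.6% for Bdnf and 14.1% for Vgf, against 6.46% for Ntrk2, 10.4% for Ntrk3, 8.17% for Sort1, 10.2% for Creb1 and 5.48% for Crtc1. Ngfr had 43.2%, at the few reads given above. Bdnf normalised reads ran from 595 to 1630, Ntrk2 from 16800 to 22800 and Crtc1 from 4200 to 5330. Ordered by group mean, Bdnf stood at 1210 ± 234 in HT lithium, 1160 ± 155 in WT lithium, 1070 ± 190 in HT fluoxetine, 1050 ± 194 in HT vehicle, 923 ± 134 in WT vehicle and 846 ± 151 in WT fluoxetine. In this order, and in that of each of the other 7 genes, every gap between neighbouring conditions was smaller than the larger of the pair's SDs.

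**Figure D2:**
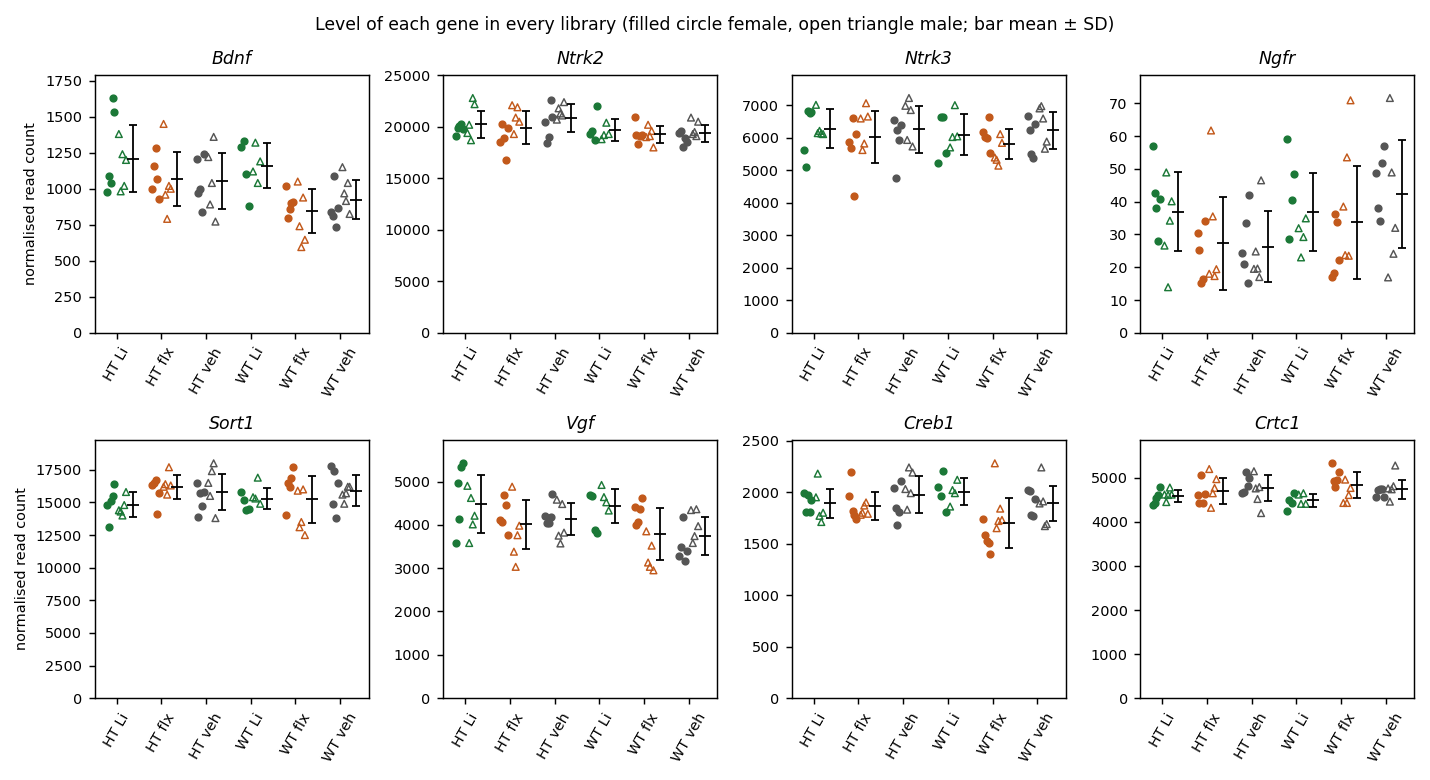
Normalised reads of the 8 genes in each of the 58 libraries by genotype, treatment and sex, with the mean of each condition. Bdnf is highest in the lithium libraries of both genotypes and lowest in WT fluoxetine, with overlap between all conditions.

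The clearest difference within the set was between the drugs in wild-type mice. Bdnf and Creb1 were both higher under lithium than under fluoxetine, Bdnf by 1.38-fold and Creb1 by less, while the receptors Ntrk2 and Ntrk3 differed little. These were the only calls among the 8 genes in any of the 9 comparisons of groups. In WT lithium against WT fluoxetine, 2 of 8 members were called at an adjusted p below 0.05 (limma, adjusted over 16606 genes), where 802 of all 16606 genes (4.83%) were called. Both were higher, as were 435 of the 802, or 2.62% of all genes.

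Bdnf had 1290, 1330, 1100 and 882 normalised reads in the 4 female and 1120, 1320, 1040 and 1190 in the 4 male WT lithium libraries. In WT fluoxetine libraries it had 1020, 795, 861, 903 and 908 in females and 1050, 740, 595, 939 and 646 in males. The groups overlapped, with WT lithium female 4 and male 3 below the highest fluoxetine value, and 7 of 8 lithium libraries lay above the fluoxetine mean of their sex. The difference was 0.46 ± 0.12 on the log2 scale (SE, 95% interval 0.23 to 0.70, limma adjusted p = 0.0163). WT vehicle libraries lay at 733 to 1150 with a median of 891, nearer to fluoxetine than to lithium.

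Creb1, which encodes the transcription factor CREB, had 2050, 1960, 2210 and 1810 normalised reads in female and 1860, 2020, 1990 and 2120 in male WT lithium libraries. In WT fluoxetine libraries it had 1740, 1580, 1530, 1510 and 1400 in females and 2280, 1650, 1720, 1840 and 1730 in males. Apart from WT fluoxetine male 1 at 2280 and male 4 at 1840, the fluoxetine values lay below every lithium value, and 8 of 8 lithium libraries exceeded the fluoxetine mean of their sex. The difference was 0.25 ± 0.06 (log2, SE, 95% interval 0.13 to 0.36, limma adjusted p = 0.012). The WT vehicle median of 1900 lay between those of lithium (2000) and fluoxetine (1690). The vehicle range of 1670 to 2240 overlapped both drugs.

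Vgf, a CREB and BDNF target whose peptides are released with BDNF, had 3820 to 4920 normalised reads in WT lithium libraries (median 4580) and 2950 to 4620 in WT fluoxetine libraries (median 3930). Its difference of 0.24 ± 0.08 did not pass (limma adjusted p = 0.057), with 6 of 8 lithium libraries above the fluoxetine mean of their sex. It was the mean of unlike values in the sexes, -0.01 in females and 0.49 in males, whose difference of -0.50 ± 0.15 did not pass over all genes (adjusted p = 0.174). Vgf passed with the striatal marker level as a covariate (0.24, adjusted p = 0.0415) and with the trend over GC content and length removed (0.32, adjusted p = 0.0208). It did not pass with the leptomeningeal level as a covariate (0.20, adjusted p = 0.1) or with upper-quartile rescaling (0.22, adjusted p = 0.0736). Crtc1, the CREB coactivator, had 4240 to 4650 in WT lithium (median 4460) and 4430 to 5330 in WT fluoxetine libraries (median 4860), the reverse order. Its difference of -0.11 ± 0.03 also stayed above the threshold (limma adjusted p = 0.0551), and 7 of 8 lithium libraries were below the fluoxetine mean of their sex. Crtc1 passed in females alone (-0.18, adjusted p = 0.0172), but not in males (-0.04, adjusted p = 0.815). It also passed with a minimum mean of 50 (adjusted p = 0.0484), with upper-quartile rescaling (adjusted p = 0.0346) and with the leptomeningeal level as a covariate (adjusted p = 0.0248). It did not pass with the trend over GC content and length removed (-0.08, adjusted p = 0.257). With 1 library left out, its adjusted p ran from 0.0295 to 0.141. The remaining differences were 0.03 ± 0.04 for Ntrk2, 0.07 ± 0.07 for Ntrk3, 0.21 ± 0.26 for Ngfr and 0.01 ± 0.05 for Sort1. The 95% intervals of Ntrk2 (-0.05 to 0.11) and Sort1 (-0.09 to 0.12) are narrow, whereas that of Ngfr (-0.32 to 0.74) is wide.

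Fitted in each sex alone, the Bdnf difference was 0.34 in females (limma adjusted p = 0.172) and 0.58 in males (adjusted p = 0.283), and neither passed; that of Creb1 was 0.37 in females (adjusted p = 0.00737) and 0.12 in males (adjusted p = 0.576), where 0 of 16606 genes were called. Across genes, the log2 difference was correlated with GC content (r = -0.169 over 16595 genes, which are not independent replicates), and Bdnf (40.9% GC) and Creb1 (39.6%) lie below the median gene at 49.4%; with that trend removed, an alternative chosen after seeing the data, the differences were 0.43 (adjusted p = 0.0409) and 0.20 (adjusted p = 0.00927). No marker of any list was called between these groups. The olfactory bulb list had 4 of 8 markers above 0 and a summed level of 1380 to 21500 in WT lithium and 2170 to 27400 in WT fluoxetine, and the excitatory list had 3 of 6 above 0, at 112000 to 143000 and 112000 to 151000. With the olfactory bulb level as a covariate, Bdnf differed by 0.47 (adjusted p = 0.00423), Creb1 by 0.25 (adjusted p = 0.0052), Vgf by 0.24 (adjusted p = 0.00908) and Crtc1 by -0.11 (adjusted p = 0.0237).

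In HT mice the same pair of drugs gave 0 of 8 members called by limma, where 324 of 16606 genes (1.95%) were called. edgeR and DESeq2 likewise called 0 members. Shares over all genes, here and below, are those of limma. DESeq2 counts over all genes are given at the end for most comparisons. Those of edgeR are not given, so its member counts stand without a share. At an unadjusted p below 0.05 there were 2 of 8 members, Vgf and Sort1, where 2543 of all genes (15.3%) were below it. Bdnf had 977 to 1630 normalised reads in HT lithium (median 1150) and 791 to 1450 in HT fluoxetine libraries (median 1010), a difference of 0.18 ± 0.11 (limma adjusted p = 0.459). Vgf had 3580 to 5420 in HT lithium (median 4410) and 3030 to 4880 in HT fluoxetine (median 4020), a difference of 0.16 ± 0.07 (adjusted p = 0.267). Sort1, which sorts the BDNF precursor into the regulated secretory route, had 13100 to 16400 in HT lithium (median 14800) and 14100 to 17700 in HT fluoxetine (median 16300). Its difference was -0.13 ± 0.05 (adjusted p = 0.185), with 9 of 10 lithium libraries below the fluoxetine mean of their sex. Creb1 differed by 0.02 ± 0.05 (adjusted p = 0.906), with medians of 1870 in HT lithium and 1810 in HT fluoxetine libraries.

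Whether the contrast of lithium and fluoxetine differed between HT and WT mice was tested directly, as a comparison added after seeing the data. The difference of differences was -0.23 ± 0.08 for Creb1 (limma adjusted p = 0.24) and -0.29 ± 0.16 for Bdnf (adjusted p = 0.445), so the calls in WT are not shown to be particular to WT. Over all 16606 genes, 1 (0.00602%) was called there.

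**Figure D3:**
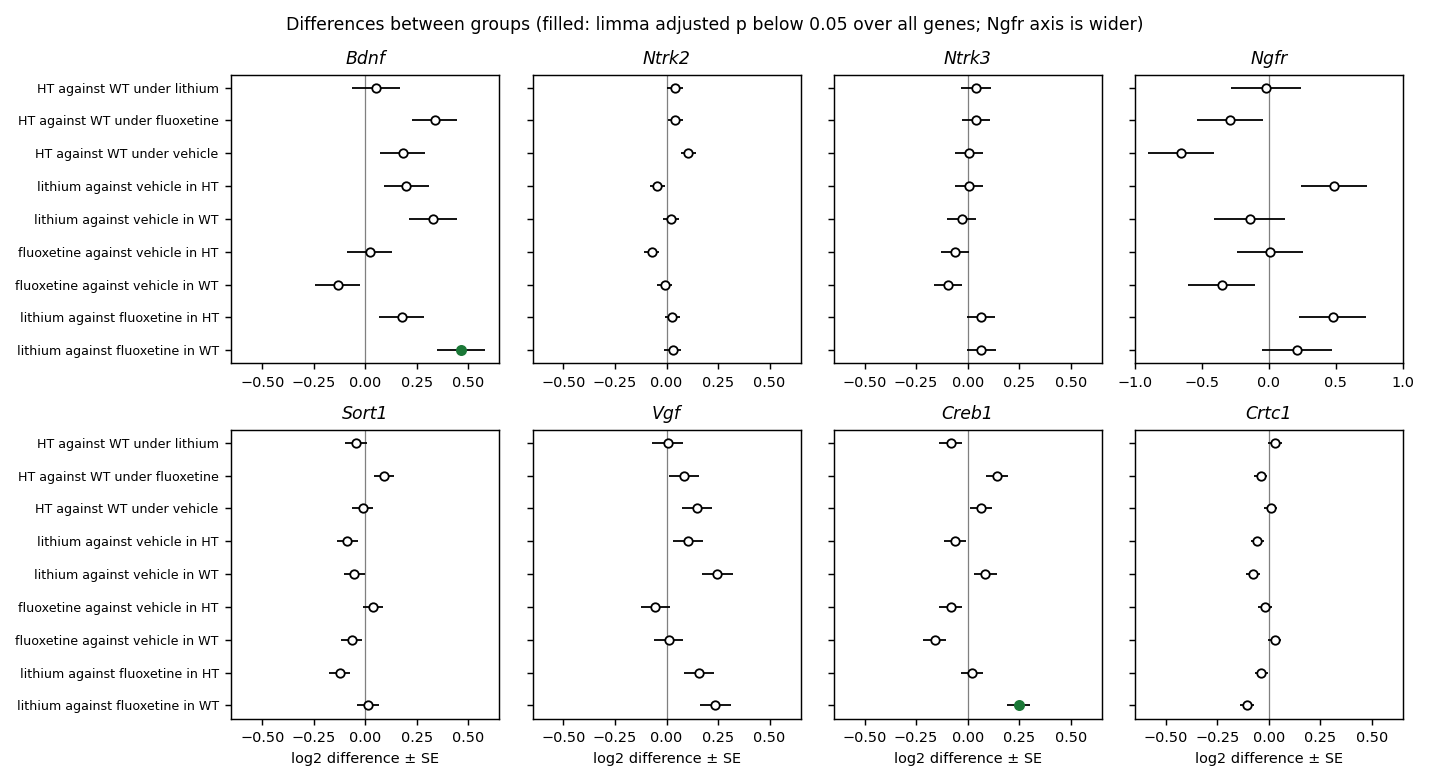
Log2 differences of the 8 genes in the 9 comparisons of groups, with bars of ± SE, which are narrower than 95% intervals. Filled points passed at an adjusted p below 0.05. Bdnf and Creb1 are filled for lithium against fluoxetine in WT, at 0.46 and 0.25, and no other point is.

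Against vehicle, lithium gave 0 of 8 members called in WT, where 5 of 16606 genes (0.0301%) were called, and 0 of 8 in HT, where 64 (0.385%) were. edgeR and DESeq2 also called 0 members in both, and at an unadjusted p below 0.05 there were 3 members in WT (Bdnf, Vgf and Crtc1) and 0 in HT, where 9.38% and 12.2% of all genes were below it. In WT, Bdnf had 882 to 1330 normalised reads under lithium (median 1160) and 733 to 1150 under vehicle (median 891), a difference of 0.33 ± 0.12 (limma adjusted p = 0.311). All 8 lithium libraries were above the vehicle mean of their sex. Vgf had 3820 to 4920 under lithium (median 4580) and 3160 to 4360 under vehicle (median 3660), again with 8 of 8 above, and a difference of 0.25 ± 0.08 (adjusted p = 0.222). It passed with the olfactory bulb level as a covariate (0.26, adjusted p = 0.0323). Crtc1 had 4240 to 4650 under lithium and 4460 to 5280 under vehicle, with 8 of 8 below and a difference of -0.08 ± 0.03 (adjusted p = 0.438). Creb1 differed by 0.09 ± 0.06 (adjusted p = 0.685).

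In HT mice, lithium against vehicle gave 0.20 ± 0.11 for Bdnf (limma adjusted p = 0.477), 0.10 ± 0.07 for Vgf (adjusted p = 0.61) and -0.06 ± 0.03 for Crtc1 (adjusted p = 0.501). Ngfr had 13.9 to 56.9 normalised reads in HT lithium (median 39) and 15.1 to 46.5 in HT vehicle libraries (median 22.5), a difference of 0.49 ± 0.25 (adjusted p = 0.424). The lithium effect in HT minus that in WT was -0.13 ± 0.16 for Bdnf (adjusted p = 0.998) and -0.14 ± 0.10 for Vgf (adjusted p = 0.998). In that test of the difference, limma called 0 of 16606 genes, with 609 at an unadjusted p below 0.05.

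Fluoxetine against vehicle gave 0 of 8 members called in WT, where 61 of 16606 genes (0.367%) were called, and 0 of 8 in HT, where 0 genes (0%) were called and 1526 had an unadjusted p below 0.05. edgeR and DESeq2 called 0 members in both. Creb1 was the only member with an unadjusted p below 0.05, in WT, where 13.4% of all genes were below it. It had 1400 to 2280 normalised reads under fluoxetine (median 1690) and 1670 to 2240 under vehicle (median 1900), a difference of -0.16 ± 0.05 (limma adjusted p = 0.148), with 9 of 10 fluoxetine libraries below the vehicle mean of their sex. The exception was WT fluoxetine male 1, at 2280 the highest Creb1 value of all 58; without that library the difference was -0.20 and passed (adjusted p = 0.028), and in females alone it was -0.29 (adjusted p = 0.0359). In males alone it was -0.03 (adjusted p = 0.954), and with the GC and length trend removed -0.10 (adjusted p = 0.316). Bdnf had 595 to 1050 in WT fluoxetine and 733 to 1150 in WT vehicle libraries, a difference of -0.13 ± 0.11 (adjusted p = 0.644). In HT mice Bdnf differed by 0.02 ± 0.11 (adjusted p = 0.978) and Creb1 by -0.08 ± 0.05 (adjusted p = 0.653).

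Vgf gave opposite differences in the sexes here. In WT females it had 4000, 4060, 4360, 4410 and 4620 normalised reads under fluoxetine, against 3160, 3270, 3390, 3480 and 4190 under vehicle. In WT males it had 2950, 3030, 3130, 3520 and 3850 under fluoxetine, against 3580, 3740, 3970, 4340 and 4360 under vehicle. In each sex the groups overlapped, since 1 vehicle library in females and 1 fluoxetine library in males reached into the range of the other group. The difference was 0.30 in females and -0.28 in males, and the test of their difference gave 0.58 ± 0.14 (limma adjusted p = 0.22), which did not pass; 3 of 16606 genes passed it. The female-minus-male difference of the fluoxetine effect over both genotypes was 0.33 ± 0.10 for Vgf (adjusted p = 0.723).

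The knock-in allele gave few differences in these genes. Members called in HT against WT were 0 of 8 under lithium, where 2 of 16606 genes (0.012%) were called, 0 of 8 under fluoxetine, where 165 (0.994%) were, and 0 of 8 under vehicle, where 3 (0.0181%) were. Members at an unadjusted p below 0.05 numbered 0, 2 and 3 of 8 under lithium, fluoxetine and vehicle, where 5.34%, 18.3% and 5.76% of all genes were below it. edgeR called 0 members in each. DESeq2 called 1, Bdnf under fluoxetine, and called more genes than limma in each comparison, as given at the end.

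Under fluoxetine, Bdnf had 791 to 1450 normalised reads in HT (median 1010) and 595 to 1050 in WT libraries (median 882), a difference of 0.34 ± 0.11 (limma adjusted p = 0.0889), with 9 of 10 HT libraries above the WT mean of their sex. Creb1 had 1740 to 2200 in HT (median 1810) and 1400 to 2280 in WT libraries (median 1690), a difference of 0.14 ± 0.05 (adjusted p = 0.14). Fitted on each sex alone, the Creb1 difference was 0.29 in females (adjusted p = 0.0531) and -0.005 in males (adjusted p = 0.986). In the fit of all 12 groups the female difference, again 0.29, did pass (limma adjusted p = 0.0435). In that same fit, the test of the female-minus-male difference gave 0.30 ± 0.11 (adjusted p = 0.24). Without WT fluoxetine male 1, which is high for both genes, the differences were 0.39 (adjusted p = 0.0248) and 0.18 (adjusted p = 0.0263). With the olfactory bulb level as a covariate, the Bdnf difference was 0.27 (adjusted p = 0.131). That list had 0 of 8 markers above 0, with a summed level of 1200 to 16900 in HT and 2170 to 27400 in WT fluoxetine libraries. Excitatory neuron markers, which Bdnf followed within groups, had 6 of 6 above 0 with a median of 0.17 and 0 called by limma, and summed to 127000 to 152000 in HT and 112000 to 151000 in WT fluoxetine libraries; their part in the result was not tested.

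Under vehicle, Ntrk2, the TrkB receptor, had 18400 to 22600 normalised reads in HT (median 21100) and 18000 to 20900 in WT libraries (median 19400). The difference was 0.11 ± 0.04 (limma adjusted p = 0.667), with 9 of 10 HT libraries above the WT mean of their sex. Ngfr had 15.1 to 46.5 in HT (median 22.5) and 16.9 to 71.6 in WT libraries (median 43.3), a difference of -0.65 ± 0.25 (adjusted p = 0.728), with 9 of 10 HT libraries below. The difference was -0.43 with the olfactory bulb level as a covariate and -0.39 with that of leptomeningeal fibroblasts. Those lists had 0 of 8 and 1 of 8 markers above 0, with summed levels of 1390 to 17100 and 3410 to 5610 in HT against 1560 to 29200 and 3590 to 5840 in WT vehicle libraries. Vgf differed by 0.15 ± 0.07 (adjusted p = 0.857) and Bdnf by 0.18 ± 0.11 (adjusted p = 0.879). Under lithium, HT and WT differed by 0.05 ± 0.12 in Bdnf (95% interval -0.18 to 0.29) and by -0.08 ± 0.06 in Creb1.

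Over all treatments and both genotypes, females against males gave 0 of 8 members called, where 19 of 16606 genes (0.114%) were called, and 1 member at an unadjusted p below 0.05, where 7.56% of all genes were. That was Ntrk2, at -0.05 ± 0.02 (limma adjusted p = 0.589). edgeR and DESeq2 called 0 members.

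The members were read against 6 lists of the wider pathway, 130 genes of which 127 were tested and 119 were not members. In WT lithium against WT fluoxetine, 10 of the 127 were called (7.87%), where 4.83% of all 16606 genes were called. The difference between such shares was not tested. Of the 10, 9 were higher and 1 was lower, and without the members 7 were higher and 1 was lower. Upstream of the receptor stood Pcsk1, a convertase of dense-core vesicles that processes prohormones. It averaged 2070 ± 286 normalised reads in WT lithium, 1500 ± 240 in WT fluoxetine and 1750 ± 264 in WT vehicle libraries (lithium against fluoxetine 0.47 ± 0.11, limma adjusted p = 0.0092). Its promoter stretch is printed above with 1 long cAMP response element and a separate short form. Promoters of the other called list genes that are not members were not examined one by one. Whether the match is particular to Pcsk1 among them was thus not tested. Downstream, Spry4, a feedback inhibitor of receptor tyrosine kinases, averaged 448 ± 110 in WT lithium, against 307 ± 41.1 in WT fluoxetine libraries (0.51 ± 0.14, adjusted p = 0.0241). Its WT vehicle mean was 378 ± 75.4. Homer1, a postsynaptic scaffold with a short form induced by activity, averaged 8370 ± 1310 in WT lithium, against 5440 ± 1680 in WT fluoxetine libraries (0.66 ± 0.16, adjusted p = 0.0142). Its WT vehicle mean was 6910 ± 1440. Pik3r2, a regulatory subunit of PI3K, averaged 3630 ± 227 in WT lithium, against 4110 ± 338 in WT fluoxetine libraries (-0.18 ± 0.04, adjusted p = 0.011), with 3790 ± 295 in WT vehicle libraries. Each of these vehicle means thus lay between those of the drugs. The other called genes, named after their values were seen to complete the count, were the kinase Rps6ka3 (0.26), the orphan nuclear receptor Nr4a3 (0.93), the CREB relative Crem (0.25) and the stress and activity gene Gadd45b (0.51), all higher under lithium. WT vehicle means of Rps6ka3 (2480), Nr4a3 (909) and Crem (409) also lay between those of the drugs. That of Gadd45b did not, at 274 ± 62.6 against 282 ± 58.2 in WT fluoxetine and 403 ± 96.3 in WT lithium libraries.

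By list, the 22 CREB and activity targets had 20 genes above 0 with a median of 0.27, where the median over all genes was 0.00 (-0.001). Of these targets 3 were called higher, where 2.62% of all genes were. The ligand and receptor list had 6 of 12 tested genes above 0 (median 0.00, at 0.003) and Bdnf as its only call. The processing and secretion list had 9 of 14 above 0 (median 0.01), and the Trk adaptors 14 of 25 (median 0.05) with 0 called by limma. The MAPK and PI3K arms had 16 of 26 above 0 (median 0.02), and the CREB family, coactivators and kinases 17 of 28 (median 0.02).

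In HT lithium against HT fluoxetine, 8 of the 127 were called (6.3%), where 1.95% of all 16606 genes were called. Of the 8, 7 were higher and 1 was lower, and 0 were members. Of the 22 CREB and activity targets 21 were above 0, with a median of 0.38, and 6 were called higher. Arc, a postsynaptic immediate-early gene, averaged 4520 ± 1890 normalised reads in HT lithium, against 1450 ± 684 in HT fluoxetine libraries (1.64 ± 0.38, limma adjusted p = 0.0127). Its HT vehicle mean was 4200 ± 2450. Dusp1, a MAP kinase phosphatase, averaged 785 ± 191 in HT lithium, against 433 ± 58.1 in HT fluoxetine libraries (0.83 ± 0.18, adjusted p = 0.00955). Its HT vehicle mean was 696 ± 209. Gadd45b averaged 400 ± 79.2 in HT lithium, against 255 ± 58 in HT fluoxetine libraries (0.65 ± 0.15, adjusted p = 0.0101), with 286 ± 68.7 in HT vehicle libraries. Vehicle thus lay nearer to lithium for Arc and Dusp1 and nearer to fluoxetine for Gadd45b. The transcription factors Junb (0.96) and Npas4 (0.83) and the Trk adaptor Shc1 (0.26) were also higher, as was Nr4a1 (0.87), and Pik3r2 was lower (-0.14). That last pair was named after its values were seen. HT vehicle means of Junb (1160), Npas4 (610) and Nr4a1 (2190) lay nearer to lithium (1290, 647 and 2370) than to fluoxetine (646, 369 and 1290). Shc1 stood between the drugs (358, with 392 under lithium and 327 under fluoxetine), and Pik3r2 stood at its fluoxetine level (3990). Bdnf itself is a known activity target, and its HT value of 0.18 ± 0.11 stood below the list's median.

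**Figure D4:**
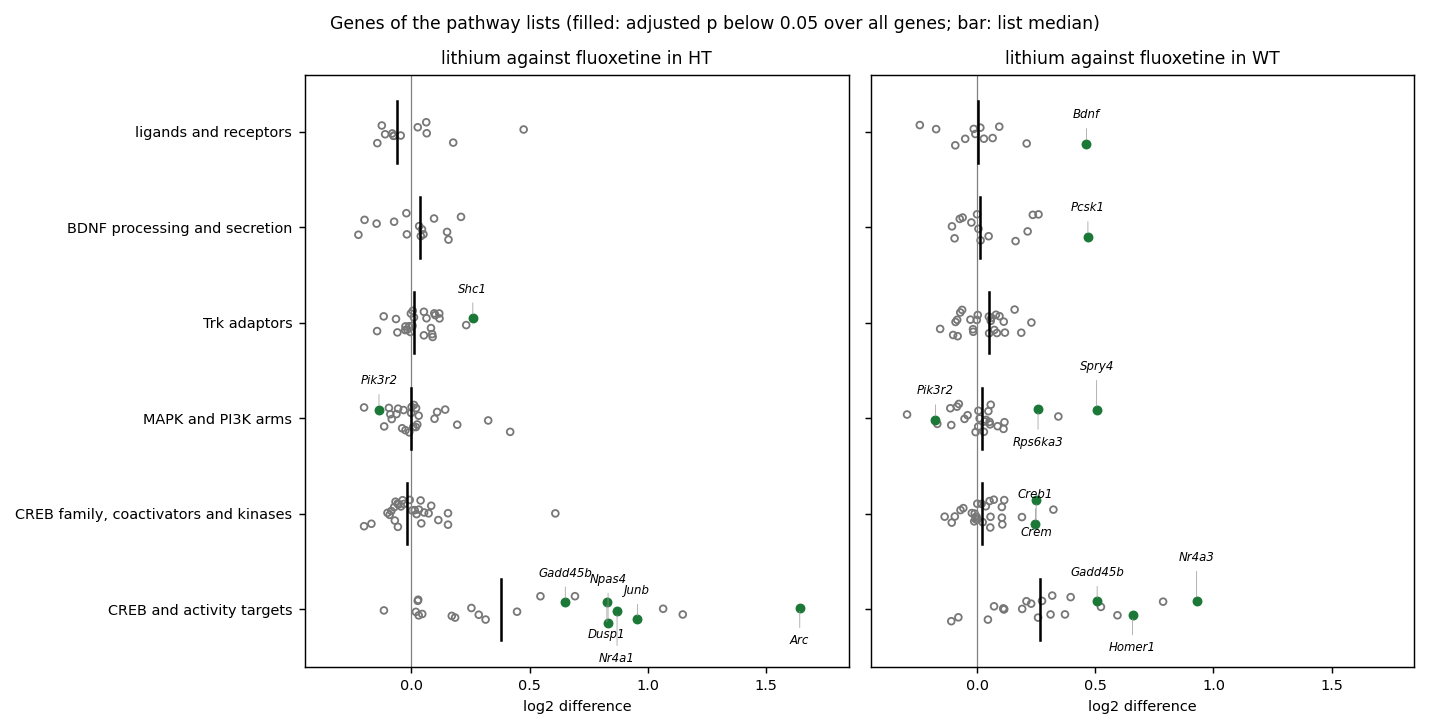
Log2 differences between lithium and fluoxetine for each tested gene of the 6 pathway lists, in HT (left) and WT (right); filled points passed at an adjusted p below 0.05 over all genes and bars are list medians. The CREB and activity targets have medians of 0.38 in HT and 0.27 in WT, and the other lists lie near 0.

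In HT against WT under fluoxetine, 4 of the 127 were called (3.15%), where 0.994% of all 16606 genes were called. Npas4, an activity-induced transcription factor of the Bdnf gene, fell to 369 ± 169 normalised reads in HT, against 790 ± 324 in WT libraries (-1.07 ± 0.20, limma adjusted p = 0.00562). The protein kinase A subunits Prkacb (0.21 ± 0.05, adjusted p = 0.014) and Prkar1a (0.10 ± 0.02, adjusted p = 0.0312) and the PI3K subunit Pik3r1 (0.17 ± 0.04, adjusted p = 0.0184) were higher in HT. In the other 6 comparisons of groups limma called 0 of the 127, where 0% to 0.385% of all genes were called. The smallest p-values there belonged to Pik3r1 (0.18, adjusted p = 0.12) and Sorcs1 (0.26, adjusted p = 0.193) in HT against WT under vehicle, and to Shc1 (0.18) and Gab2 (-0.13) under lithium (adjusted p = 0.831 for both). For fluoxetine against vehicle they belonged to Npas4 (-0.77, adjusted p = 0.209) and Arc (-1.35, adjusted p = 0.213) in HT, and to Frs3 (0.19, adjusted p = 0.104) and Pik3r2 (0.11, adjusted p = 0.145) in WT. For lithium against vehicle they belonged to Pik3r2 (-0.14, adjusted p = 0.0808) and Gab2 (-0.16, adjusted p = 0.101) in HT, and to Gadd45b (0.55, adjusted p = 0.162) and Vgf in WT. Comparisons that use the same vehicle or fluoxetine libraries share them, so these lists of values are not independent of each other.

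Within groups, Bdnf and Vgf varied together. After the mean of each of the 12 groups was subtracted on the log2 scale, their Pearson r over 58 libraries was 0.82 (Spearman rho 0.80), and Vgf ranked 32 of 12948 genes by likeness to Bdnf. Without the 2 libraries farthest from the median of Bdnf, r was 0.79. It was 0.74 after the olfactory bulb level was accounted for and 0.67 after that of excitatory neurons. Both genes followed those lists, Bdnf with r = 0.64 for excitatory and -0.51 for olfactory bulb markers and Vgf with r = 0.70 and -0.66. The points share depth and dissection, and these values are descriptions with no test.

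**Figure D5:**
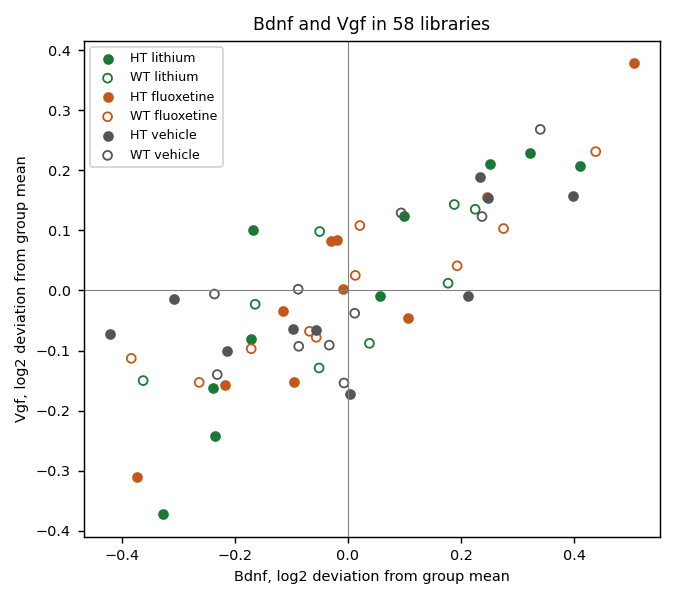
Deviation of Bdnf (x axis) and Vgf (y axis) from the mean of their group in log2 units, 1 point per library (58), coloured by treatment and filled for HT. Libraries high in Bdnf for their group tend to be high in Vgf, with r = 0.82.

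The genes whose within-group pattern was most like that of Bdnf were Etv5, an ETS transcription factor (r = 0.94), Inka2 (0.91) and Asap1 (0.90), over 58 libraries and 12948 protein-coding genes with a mean of at least 50. For Vgf they were Spry2, a feedback inhibitor of receptor tyrosine kinases (0.85), Fmnl1 (0.84) and Etv5 (0.83). The receptor Ntrk2 had lower values, with Eif2ak2 (0.67), Tnr (0.66) and Clmn (0.64), whereas Ntrk3 had Ryr2 (0.90), Tanc2 (0.86) and Ralgapb (0.85). Sort1 was nearest to Herc3 (0.88), Pcdhgc5 (0.86) and the synaptic vesicle gene Syt1 (0.86). Creb1 was nearest to Zfp638 (0.90), Top1 (0.89) and Edem3 (0.83), and Crtc1 to Plec (0.81), Ajm1 (0.81) and Caskin1 (0.80). Ngfr was nearest to Islr (0.75), Patj (0.74) and Cited2 (0.73), and followed the olfactory bulb (0.69), leptomeningeal (0.60) and excitatory (-0.66) marker levels.

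The other pairs of members were less alike. Creb1 and its coactivator Crtc1 ran against each other (r = -0.44), and Bdnf had r = 0.20 with Creb1 and 0.25 with Crtc1. These values depended on the marker levels. After the olfactory bulb level was accounted for, Bdnf had r = 0.48 with Creb1 and -0.01 with Crtc1. After that of excitatory neurons the values were 0.47 and -0.04. Creb1 and Crtc1 then had r = -0.33 and -0.39. Bdnf had r = -0.09 with its receptor Ntrk2, 0.35 with Ntrk3 and 0.50 with Sort1. Its r with Ngfr was -0.45, and -0.16 after the olfactory bulb level was accounted for.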

How the data were processed

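Polyadenylated RNA of prefrontal cortex was sequenced from 58 libraries, prepared with a stranded mRNA kit per the labels' protocols. Salmon 0.11.2, DESeq2 1.19.11, R 3.6.0 and the build GRCm38 are named in the submitters' processing notes. How reads shared between genes were split was not given in those sources. The deposited values are a normalised read signal, gene counts divided by a size factor per library; 100% of the values came out as whole reads at a tolerance of 1e-04. Names came from GENCODE M21 for 18077 of 18088 gene IDs.

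Genes with a mean of at least 10 (16606) were fitted on log2(value + 1), which understates changes of low genes, with limma 3.58.1 in R 4.3.3: 12 group means over all libraries, a mean-variance trend, and contrasts that average the female and male differences. P-values were Benjamini-Hochberg adjusted over all 16606 genes, and a gene was called below 0.05. The main set held 16 comparisons. Each comparison of groups was also tested within each sex and as the female minus the male difference, in the same fit. These further tests are not counted among the 16. edgeR 4.0.16 (17757 genes) and DESeq2 1.42.0 (18088 genes) on the recovered reads were alternatives, as were other pseudocounts, filters, scalings, marker covariates, single sexes and each library left out. The script was tested on simulated data. Within 112 same-group pairs, chi-square per degree of freedom was 6.34 to 42.8, so none looked like a repeated deposit. Animals are not named in the labels, and the spread that the p-values rest on may be technical. Members and lists were chosen with earlier results of these data known. Named genes were the members, Tbl1xr1, list genes called in a comparison (at most 6 by smallest p; where none passed, the 2 with the smallest p) and the 3 genes nearest to each member.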

Additional observations from a re-analysis of the deposited data

Results flagged for a closer look

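Of 96 combinations of a member and a group, 3 had a library far from the rest of its group, where chance gives about 1 in 20. Ntrk3 had 7010 normalised reads in HT lithium male 1, with the nearest of its group at 6210. Ngfr had 46.5 in HT vehicle male 5, with the nearest at 24.8. Vgf had 4710 in HT vehicle female 5, with the nearest at 4200.

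In 3 cases every library of a sex lay on 1 side of the mean it was set against, and every library of the other sex on the opposite side. The female-minus-male difference of Vgf under fluoxetine against vehicle in WT was 0.58 (0.30 in females, -0.28 in males, limma adjusted p = 0.22). For lithium against fluoxetine in WT it was 1.16 for Ngfr (0.79 in females, -0.37 in males, adjusted p = 0.315) and -0.26 for Sort1 (-0.11 in females, 0.14 in males, adjusted p = 0.275). None of these 3 differences passed over all genes.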

How the results depend on the processing

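The calls of Bdnf and Creb1 in WT lithium against WT fluoxetine held under both other pseudocounts (0.5 and 5), a minimum mean of 50 and none, upper-quartile rescaling, each of 3 marker covariates, GC and length trend removal, edgeR, DESeq2 and all 18 left-out libraries (adjusted p 0.00408 to 0.0466 for Bdnf, 0.00101 to 0.0317 for Creb1). Males alone called 0 members, and females alone kept Creb1 but not Bdnf. No direction was reversed in a called value. Members called there numbered 4 with the olfactory bulb covariate and 4 by DESeq2, Vgf and Crtc1 being added, and 2 to 4 with a library left out, 4 of them without WT fluoxetine male 1 or WT lithium female 4. In WT lithium against vehicle the olfactory bulb covariate gave 1 (Vgf). In WT fluoxetine against vehicle, females alone gave 1 (Creb1), and leaving out a library gave 0 to 1, the 1 without WT fluoxetine male 1. In HT against WT under fluoxetine, DESeq2 gave 1 (Bdnf, 0.34, adjusted p = 0.0477), removal of the GC and length trend 1 (Creb1, 0.16, adjusted p = 0.0411), and leaving out a library 0 to 2, the 2 without WT fluoxetine male 1. The causes were not tested. Ngfr had no value at a minimum mean of 50, and its 11 to 71 reads limit what could be seen.

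Counts over all genes moved more. The 802 genes of WT lithium against WT fluoxetine were 508 with the replicate block, 1266 with the olfactory bulb covariate, 513 without the GC and length trend, 1093 by DESeq2, 0 in males alone and 342 to 1498 without 1 library (lowest without WT lithium female 1, highest without WT fluoxetine male 1). The 324 of HT lithium against HT fluoxetine were 620 with the olfactory bulb covariate, 0 in females, 1 in males and 210 to 482 without 1 library. The 165 of HT against WT under fluoxetine were 537 by DESeq2, 268 without the GC and length trend, 94 with the leptomeningeal covariate, 61 in females, 5 in males and 26 to 1109 without 1 library. The 61 of WT fluoxetine against vehicle were 229 by DESeq2, 192 with the olfactory bulb covariate, 21 without the GC and length trend, 178 in females, 0 in males and 18 to 347 without 1 library. The 64 of HT lithium against vehicle were 183 by DESeq2, 184 with the olfactory bulb covariate, 0 in either sex and 25 to 84 without 1 library. The 5 of WT lithium against vehicle were 39 by DESeq2, 27 with the olfactory bulb covariate, 14 with the leptomeningeal covariate or without the GC and length trend, 3 under upper-quartile rescaling, 0 in either sex and 0 to 44 without 1 library. By DESeq2, HT against WT gave 9 under vehicle (limma 3) and 7 under lithium (limma 2), HT fluoxetine against vehicle gave 18 (limma 0), and the difference of the drug contrast between genotypes gave 36 (limma 1, 0 to 130 without 1 library).

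With the replicate block, Bdnf differed by 0.45 (adjusted p = 0.024) and Creb1 by 0.24 (adjusted p = 0.016) in WT lithium against WT fluoxetine. The numbers do not pair the libraries: of 309 same-number pairs 86 correlated over 0.1, and 8 of 58 libraries correlated best with their own number.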
